A study of Mus musculus with 29 samples.

Results

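NRF2, encoded by Nfe2l2, is a transcription factor that KEAP1 holds back and marks for degradation in unstressed cells. When KEAP1 is modified by oxidants or electrophiles, NRF2 enters the nucleus, pairs with a small MAF protein and binds the antioxidant response element. Its targets remake glutathione and reduced thioredoxin, remove quinones and break down haem, and in the vessel wall they are known for buffering oxidative stress. The 10 targets described here were chosen by symbol and matched to the Ensembl identifiers of the deposited counts: Srxn1, Txnrd1, Txn1, Gsr, Gclc, Gclm, Slc7a11, Nqo1, Hmox1 and Osgin1. All 10 are among the 56748 genes in the table, and 9 of them are among the 12353 genes on which the tests ran, a gene needing more than 10 counts in over 10 samples. Slc7a11 did not enter these tests, as it had at most 7 counts in any library. It entered only the alternative fits without a filter on low counts.

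RNA was sequenced from the aortic arch of mice with a DNA repair defect and of their wild-type (WT) littermates, all of them F1 hybrids of C57BL6J and FVB. Ercc1Δ/- mice carry a null and a truncated allele of Ercc1, a subunit of a DNA repair endonuclease, in every cell of the body, and WT mice were Ercc1 +/+. At 6 weeks 5 WT and 5 Ercc1Δ/- mice were sampled, fed ad libitum (AL), and at 22 weeks 4 WT and 4 Ercc1Δ/- mice on AL. The remaining groups were 5 WT and 5 Ercc1Δ/- mice of 22 weeks on dietary restriction (DR), introduced in steps from 7 weeks and at 30% less food from 9 weeks. Each group held both sexes and each mouse gave 1 library. Replicate 003, a further AL-fed WT library of 22 weeks, was left out. The arch is a mixed tissue and no cells were sorted.

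The 28 libraries held 921167 to 9616382 gene counts, and those of AL-fed 22-week-old Ercc1Δ/- mice (1294980 to 3855444) were shallower than those of their WT littermates (3903589 to 9616382). On DR, too, Ercc1Δ/- libraries (921167 to 2572523) were all shallower than WT libraries (2660422 to 6124471). On AL at 22 weeks, WT mice averaged 115 ± 8.66 (SD, n = 4) normalized counts of Ercc1 itself, and Ercc1Δ/- mice averaged 58.9 ± 7.34 (SD, n = 4), without overlap. At 6 weeks, however, the library labelled WT, replicate 011 (52.2, from 13 raw counts) lay within the range of the Ercc1Δ/- mice (31.2 to 56.3), and replicate 003, labelled WT, was at 29.9 from 3 raw counts. Without replicate 011 the number of targets past the test was the same in every comparison fitted with it. All 10 smooth muscle markers on the list used (Myh11, Acta2 and others) were tested, and their summed level was 66851 to 169057 normalized counts per library. The 15 macrophage markers summed to 1284 to 1871 in AL-fed 22-week-old WT mice and 2765 to 5204 in Ercc1Δ/- mice, with none at 0 in all libraries. In bulk tissue, fewer cells of a type and less RNA per cell cannot be told apart.

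Normalized counts below are counts scaled to a library of mean size by the TMM method. Groups were compared with edgeR's quasi-likelihood test over all 12353 genes with sex in the model, and a gene was called, or passed, where its adjusted p (Benjamini-Hochberg) did not exceed 0.05 and it differed by 1.2-fold or more. Tests of an interaction used the adjusted p alone. Reads were counted over whole gene bodies, so a level holds spliced and unspliced RNA. Of the genes annotated as overlapping a target, those in the counts table had at most 8 raw counts in any library, and the others were not analysed here.

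The antioxidant response element has the core TGACNNNGC, where N is any base. Both strands were searched from 250 bases before to 50 bases after the annotated start of each gene's canonical transcript (GRCm39, GENCODE vM39). The core was held by 3 of the 10 targets (Gclm, Txnrd1, Srxn1), beside 13.7% of the 11653 tested protein-coding genes. Of these matches some are followed by an A, as in the longer form of the element, and that form was found in 1 of 10 (Txnrd1) beside 2.54%. Over 2000 bases upstream, 7 of 10 held the core beside 47.7%, and 6 of 10 held the longer form beside 16.9%. Hmox1, Txn1 and Osgin1 had no match in either window. The stretches that follow carry the longer form in Nqo1, Txnrd1, Gclc and Gsr, and are shown because these genes sit in the quinone, thioredoxin and glutathione arms compared below. They read 5′ to 3′ on the gene's strand, with the matches in capitals and 15 bases on each side.
Nqo1, chr8:108131357-108131414, minus strand: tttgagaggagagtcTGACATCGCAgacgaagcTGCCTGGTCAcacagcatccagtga
Txnrd1, chr10:82694932-82694971, plus strand: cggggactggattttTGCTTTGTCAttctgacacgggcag
Gclc, chr9:77659784-77659823, plus strand: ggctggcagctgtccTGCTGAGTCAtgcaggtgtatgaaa
Gsr, chr8:34142507-34142546, plus strand: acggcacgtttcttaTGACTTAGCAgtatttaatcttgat
The Nqo1 stretch holds a pair of matches on opposite strands, at -1465 and -1447 relative to the start of the gene. The Txnrd1 match lies at -66, in a stretch that is also part of an exon of the antisense gene Gm38560, and another lies at -1713. Both are within the span of Txnrd1, as longer transcripts begin farther upstream. The Gsr match shown is at -744, with another at -1521, and the Gclc match is at -1998. Distances for Gsr run from the start of its canonical transcript at 34143266. The annotated Gsr gene begins farther upstream, at 34142551, just after the stretch shown. These are matches of letters, not sites shown to be bound.

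**Figure D1:**
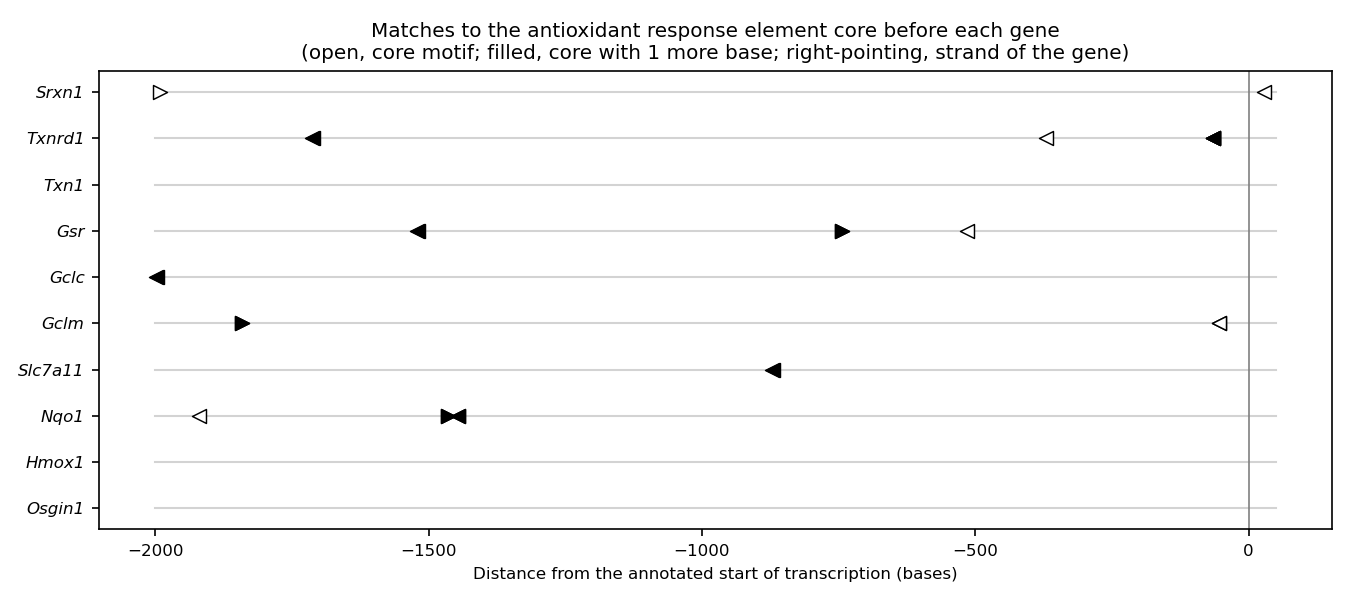
Distance in bases from the annotated start of transcription (x axis) of each match to the core motif before the 10 targets (rows); open marks are the 9-base core, filled marks the 10-base form, and marks pointing right are on the gene's strand. Txnrd1 holds a 10-base match at -66, and Hmox1, Txn1 and Osgin1 hold none.

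At 22 weeks on AL, 4 of the 9 tested targets were higher in Ercc1Δ/- than in WT aorta: Srxn1, Txnrd1, Nqo1 and Hmox1. Among all genes 12.0% passed this comparison and 5.87% passed with a higher level in Ercc1Δ/- mice. The fitted change was above 0 for all 9, with a median of 0.42 on the log2 scale beside 0.03 over all tested genes. In 6 of the 10 targets, Slc7a11 and Gclc included, every Ercc1Δ/- library lay above every WT library, as it did for 9.01% of tested genes. The WT and Ercc1Δ/- libraries also differed in depth. All libraries were therefore also thinned to 921167 counts, in a single random draw that every thinned fit below shares. In that draw Hmox1 (adjusted p = 0.00430) and Srxn1 (adjusted p = 0.00616) passed edgeR's test. Txnrd1 (log2 0.39, adjusted p = 0.0598) and Nqo1 (log2 0.50, adjusted p = 0.323) did not, beside 0.42 and 0.60 at full depth. How far these values vary between draws was not tested.

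In the thioredoxin arm, Srxn1 (chr2:151947436-151957687, plus strand, GRCm39) encodes sulfiredoxin, which repairs overoxidized peroxiredoxins. In AL-fed 22-week-old WT mice it had 141, 143, 150 and 157 normalized counts, and in Ercc1Δ/- mice 228, 251, 256 and 299. The groups were far apart, and WT libraries varied little (coefficient of variation 4.92%). The fitted rise was 1.76-fold (log2 0.82 ± 0.12 SE, adjusted p = 1.14e-04, edgeR quasi-likelihood test), rank 102 of 12353 genes by p. Leaving out each library in turn moved it between 0.71 and 0.88, and it passed in all 18 fits.

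Txnrd1 (chr10:82669785-82733546, plus strand) encodes cytosolic thioredoxin reductase, which restores thioredoxin with NADPH. It had 284, 291, 319 and 321 normalized counts in WT mice and 388, 398, 410 and 444 in Ercc1Δ/- mice. Here too each Ercc1Δ/- library exceeded each WT library, by a smaller margin than for Srxn1. The rise was 1.34-fold (log2 0.42 ± 0.09 SE, adjusted p = 0.00425, edgeR), and it passed in all 18 fits without 1 library.

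Txn1, thioredoxin itself, did not pass. Its WT libraries held 188, 212, 240 and 256 normalized counts and its Ercc1Δ/- libraries 216, 263, 290 and 304, so the groups overlapped (log2 0.30 ± 0.14 SE, adjusted p = 0.190, edgeR). For levels per kilobase, counts were divided by the joined length of all annotated exons, such as 2200 bases for Txn1 and 9391 for Srxn1. The counts also hold unspliced RNA and a transcript can be shorter than this length, so the order of genes depends on the annotation. On this scale Txn1 was the most abundant target, at 102 ± 13.7 (SD, n = 4) normalized counts per kilobase in AL-fed WT mice of 22 weeks. Txnrd1 followed at 42.9 ± 2.67 per kilobase and Gclc at 32.8 ± 2.65, and the ranges of these 3 genes did not meet. Hmox1 (28.9 ± 5.48 per kilobase) and Nqo1 (23.5 ± 4.44) overlapped each other, and Hmox1 overlapped Gclc above it. Gclm (19.8 ± 2.17 per kilobase) overlapped Nqo1 and Gsr (16.8 ± 0.985), Gsr overlapped Srxn1 (15.7 ± 0.774), and Osgin1 (8.84 ± 2.78) and Slc7a11 (0.0217 ± 0.0295) stood lowest. In AL-fed Ercc1Δ/- mice Hmox1 was second at 105 ± 54.2 per kilobase (SD, n = 4), with a range of 42.8 to 155 that covered that of Txn1 (98.4 to 138) and of Txnrd1 (54.7 to 62.6).

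Glutathione is made and kept reduced by 4 of the targets. Gclc (chr9:77661797-77701770, plus strand), the catalytic subunit of the enzyme that limits glutathione synthesis, had 193, 197, 202 and 230 normalized counts in AL-fed WT mice and 234, 243, 257 and 330 in Ercc1Δ/- mice. The groups did not overlap, yet Gclc missed the test across genes (log2 0.34 ± 0.13 SE, adjusted p = 0.0996, edgeR). Its partner Gclm, the modifier subunit, ranged from 136 to 173 in WT and from 131 to 223 in Ercc1Δ/- mice (log2 0.28 ± 0.20 SE, adjusted p = 0.412). Gsr, which reduces oxidized glutathione, had 108, 116, 117 and 124 normalized counts in WT and 58.6, 133, 137 and 145 in Ercc1Δ/- mice. Of the Ercc1Δ/- libraries, 3 were above all WT libraries and replicate 013 was below all, and the fitted difference was 0.03 ± 0.18 SE (log2, adjusted p = 0.948). Without replicate 013 it was 0.23 and still did not pass.

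Slc7a11, the cystine carrier that supplies cysteine for glutathione, was near the limit of detection. On AL at 22 weeks it had 2 raw counts over the 4 WT libraries of 25945185 counts in all, and 17 over the 4 Ercc1Δ/- libraries of 9935575. Normalized, the WT libraries stood at 0, 0, 0.380 and 0.970 and the Ercc1Δ/- libraries at 2.79, 5.41, 7.35 and 7.47. An exact permutation test of the means, two-sided, gave p = 0.0286, the smallest that 4 against 4 allows, or 0.127 after Benjamini-Hochberg adjustment over the 80 exact tests of 10 targets in 8 comparisons. With counts this low no fold change is given.

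Nqo1 (chr8:108113835-108129934, minus strand) encodes the quinone reductase often used as a readout of NRF2. It had 46.6, 67.2, 71.8 and 72.5 normalized counts in WT and 78.1, 87.5, 102 and 132 in Ercc1Δ/- mice. All Ercc1Δ/- libraries were above the WT libraries, the nearest by a small margin. The rise was 1.52-fold (log2 0.60 ± 0.18 SE, adjusted p = 0.0308, edgeR). It held in 14 of 18 fits without 1 library and was lost without WT replicates 012 (adjusted p = 0.0747) or 018 (0.0727), or without Ercc1Δ/- replicates 005 (0.0891) or 026 (0.174). Replicate 003, the WT library left out, had 209 from 21 raw counts, and with it Nqo1 differed by 0.39 ± 0.24 SE (adjusted p = 0.360).

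Hmox1 (chr8:75820241-75827217, plus strand) encodes haem oxygenase, which opens haem to biliverdin, iron and carbon monoxide. Its WT libraries held 43.7, 46.1, 48.6 and 64.9 normalized counts and its Ercc1Δ/- libraries 75.3, 134, 256 and 272. The Ercc1Δ/- libraries spread widely (coefficient of variation 51.7%) but none reached down to the WT range. The rise of 3.64-fold was the largest of the 9 (log2 1.86 ± 0.31 SE, adjusted p = 7.79e-04, edgeR), and it passed in all 18 fits without 1 library. Macrophage markers, which mark cells rich in haem oxygenase, rose in the same comparison in 12 of 15 genes, while 8 of 10 smooth muscle markers fell. Replicate 013, lowest for Hmox1, also had the lowest macrophage sum of its group (2765), and replicate 005 had 256 for Hmox1 and the highest sum (5204). The part of macrophage number in the rise of Hmox1 was not tested.

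Osgin1, named for its link to oxidative stress and growth inhibition, had 25.8, 36.7, 50.5 and 54.7 normalized counts in WT and 50.2, 56.8, 59.9 and 64.7 in Ercc1Δ/- mice. The groups overlapped and it did not pass (log2 0.58 ± 0.22 SE, adjusted p = 0.0942). Without WT replicate 025 it did (log2 0.73, adjusted p = 0.0464, edgeR).

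**Figure D2:**
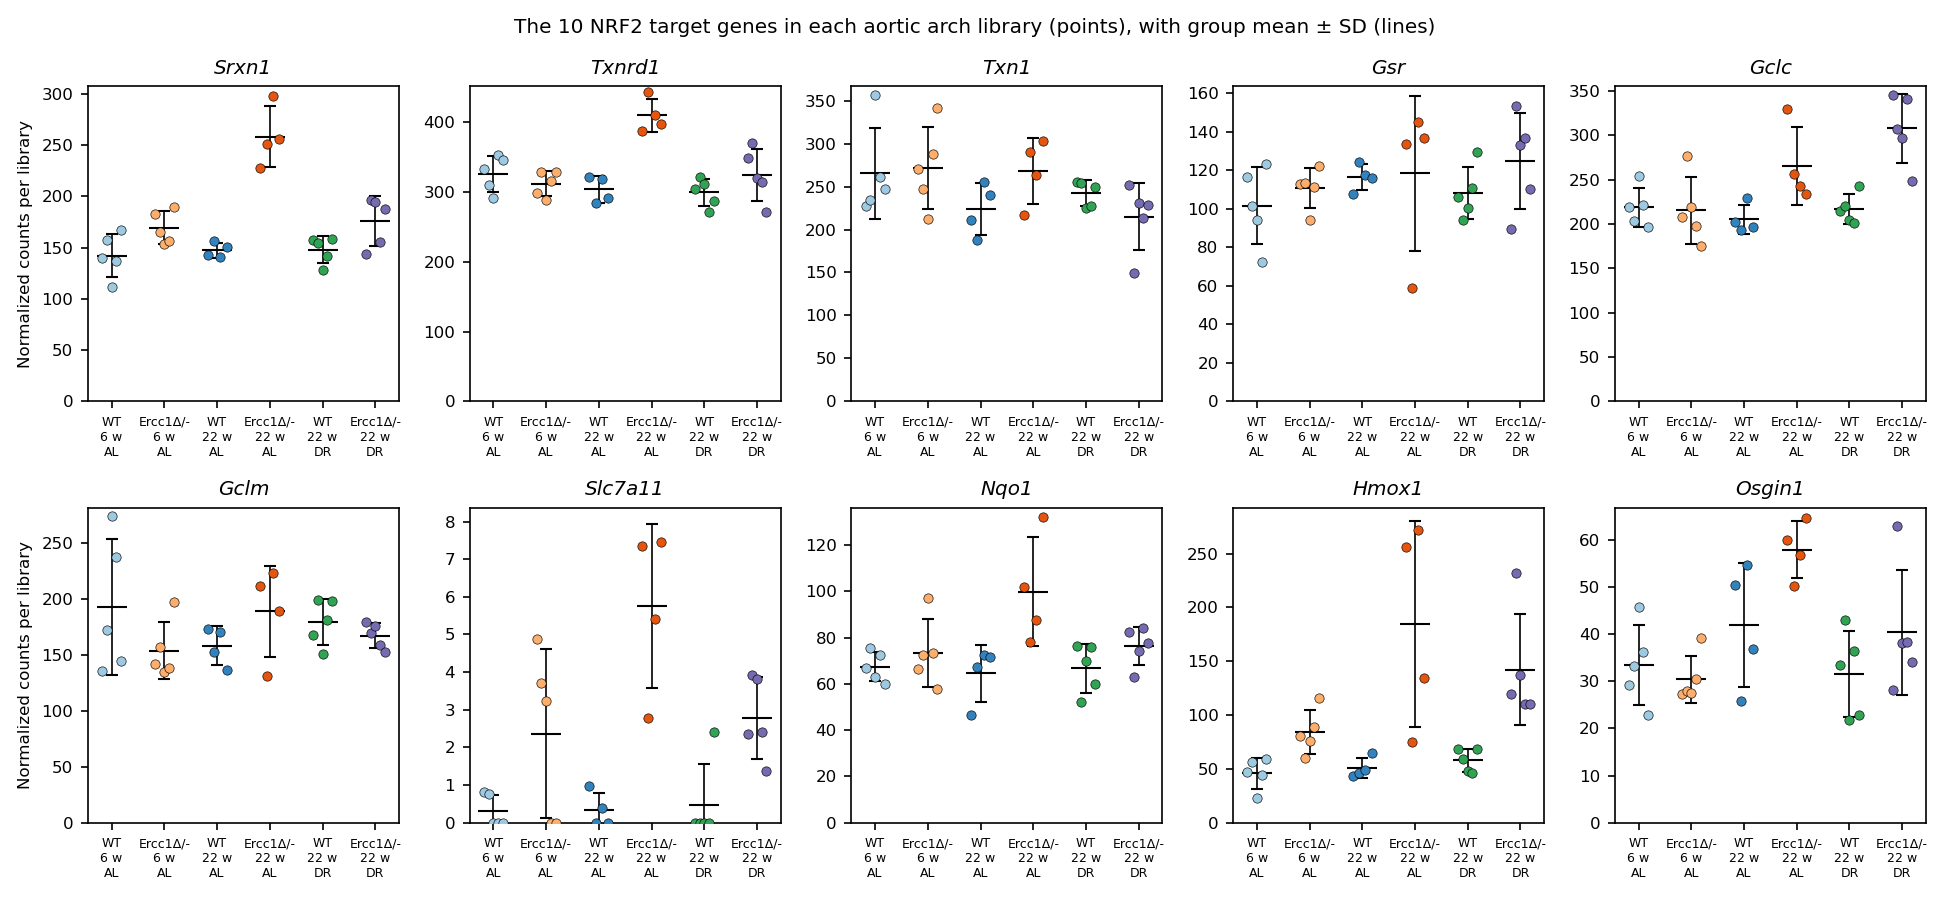
Normalized counts (y axis, from 0) of the 10 targets in the 28 libraries, 1 point per library, with the mean (bar) and SD (whiskers) of each of the 6 groups (x axis). Srxn1 in AL-fed Ercc1Δ/- mice of 22 weeks sits between 228 and 299, above every library of the other 5 groups, while Gsr overlaps throughout.

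At 6 weeks on AL, 0 of 9 targets passed between genotypes in edgeR or in DESeq2, beside 1.71% of all genes in edgeR. An unadjusted p under 0.05 in edgeR was found for 2 of 9 targets and for 1583 of all 12353 genes. Hmox1 had 22.8, 44.2, 47.6, 56.6 and 58.9 normalized counts in WT and 60.5, 76.2, 80.9, 88.9 and 116 in Ercc1Δ/- mice (log2 0.77 ± 0.30 SE, adjusted p = 0.259). The highest WT library came close to the lowest Ercc1Δ/- library. Srxn1 averaged 142 ± 21.4 (SD, n = 5) in WT and 170 ± 16.0 (SD, n = 5) in Ercc1Δ/- mice (adjusted p = 0.376), and the ranges overlapped. Gclm had the lowest value (log2 -0.24 ± 0.18 SE, adjusted p = 0.656).

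Between 6 and 22 weeks, 0 of 9 targets changed in WT aorta by edgeR or DESeq2, beside 0.235% of all genes called in edgeR. There 0 of 9 targets had an unadjusted p under 0.05, beside 1069 of all 12353 genes. In Ercc1Δ/- aorta 4 of 9 rose, against 4.66% of genes called and 2.11% called upward: Srxn1 by 1.52-fold (log2 0.61 ± 0.12 SE, adjusted p = 0.00234), Txnrd1 by 1.30-fold (0.38 ± 0.09, adjusted p = 0.0125), Osgin1 by 1.98-fold (0.99 ± 0.23, adjusted p = 0.0111) and Hmox1 by 2.24-fold (1.16 ± 0.29, adjusted p = 0.0264; all edgeR). Osgin1 had 27.3, 27.5, 27.9, 30.4 and 39.1 normalized counts at 6 weeks, below the 50.2 to 64.7 of 22 weeks. For Srxn1, Txnrd1 and Osgin1 every 22-week library lay above every 6-week library, which 3.41% of all genes did. Hmox1 overlapped between ages and lost its call without any of Ercc1Δ/- replicates 002, 008 and 023 of 6 weeks or 005 and 004 of 22 weeks (adjusted p 0.0531 to 0.0973). Macrophage markers rose in 9 of 15 genes over the same interval, and their part in these changes was not tested.

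The difference between the genotypes in their change with age was tested directly as an interaction, which 0.842% of all genes passed in edgeR. Of the targets 0 of 9 passed, and DESeq2 called 2 of 9. In edgeR 3 of 9 had an unadjusted p under 0.05, as had 1406 of all 12353 genes. Txnrd1 came nearest, rising by 0.48 ± 0.13 SE more on the log2 scale in Ercc1Δ/- than in WT mice (adjusted p = 0.0896 in edgeR, 0.0163 in DESeq2). The value for Srxn1 was 0.58 ± 0.17 SE (adjusted p = 0.121 in edgeR, 0.0461 in DESeq2). A higher level at 22 weeks and none called at 6 weeks are thus not shown by the main test to differ for any single target.

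DR was compared with AL at 22 weeks in each genotype, to ask how the aorta differs with food restriction at this age. In Ercc1Δ/- mice 1 of 9 targets changed, Srxn1, which fell; 1.64% of all genes were called and 0.996% were called downward. Its 5 libraries on DR held 144, 156, 188, 194 and 197 normalized counts, all below the 228 of the lowest AL library. The log2 change was -0.53 ± 0.11 SE (adjusted p = 0.0141, edgeR), to 0.690 of the AL level. The call was lost without AL-fed Ercc1Δ/- replicates 004 (adjusted p = 0.0773) or 026 (0.0517), with values of -0.47 and -0.51. It was also lost with libraries thinned to the shallowest, and with only the compared groups in the fit (adjusted p = 0.0787, edgeR).

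Txnrd1 also had all DR libraries below all AL libraries, with 271, 314, 320, 348 and 370 normalized counts on DR against 388 to 444 on AL, but missed the threshold (log2 -0.35 ± 0.10 SE, adjusted p = 0.0660). It passed without DR replicate 014 (log2 -0.41, adjusted p = 0.0412, edgeR) and in DESeq2 (adjusted p = 0.0274). These were the 2 of 10 targets with no overlap between diets, as for 3.02% of all genes in this direction. Osgin1 had the lowest value (log2 -0.63 ± 0.27 SE, adjusted p = 0.266), and Nqo1 did not pass either (-0.39 ± 0.18 SE, adjusted p = 0.288). Over the 9 targets 7 values were below 0, with a median of -0.35 beside -3.63e-05 over all genes. Gclc and Gsr were above 0, at 0.20 ± 0.12 SE (adjusted p = 0.460) and 0.04 ± 0.18 SE (adjusted p = 0.957).

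Hmox1 on DR had 110, 110, 120, 137 and 232 normalized counts in Ercc1Δ/- mice, within the AL range of 75.3 to 272 (log2 -0.41 ± 0.26 SE, adjusted p = 0.487). Of the macrophage markers 5 of 15 fell with DR in these mice, and the sum ranged from 2027 to 5654. Replicate 016, with the highest sum, had 110 for Hmox1 and 156 for Srxn1, whereas replicate 014, with 232 for Hmox1, had a sum of 2180. Slc7a11 had 6 raw counts over the 5 DR libraries, and its normalized values of 1.36 to 3.94 overlapped those on AL (exact permutation test, two-sided, p = 0.0476, adjusted 0.201 over 80 tests).

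In WT mice 0 of 9 targets changed with DR by edgeR or DESeq2, while 1.30% of all genes were called in edgeR. There 0 of 9 targets had an unadjusted p under 0.05, beside 1584 of all 12353 genes. Srxn1 averaged 148 ± 7.27 (SD, n = 4) on AL and 148 ± 13.2 (SD, n = 5) on DR, and Txnrd1 304 ± 18.9 and 300 ± 20.0 (SD). The log2 values lay between -0.32 for Osgin1 and 0.16 for Gclm. The difference in the response to DR between genotypes was passed by 0.0971% of all genes and by 0 of 9 targets in edgeR and in DESeq2. In edgeR 3 of 9 targets had an unadjusted p under 0.05, as had 1076 of all 12353 genes. For Srxn1 the difference was -0.52 ± 0.15 SE (adjusted p = 0.266), for Txn1 -0.44 ± 0.17 SE (adjusted p = 0.438) and for Txnrd1 -0.33 ± 0.13 SE (adjusted p = 0.471).

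Between genotypes on DR, 2 of 9 targets were higher in Ercc1Δ/- aorta, Hmox1 and Gclc, where 13.0% of genes were called and 5.93% were called upward. Hmox1 ranged from 46.2 to 68.8 normalized counts in WT mice on DR and from 110 upward in Ercc1Δ/- mice, a 2.33-fold rise (log2 1.22 ± 0.26 SE, adjusted p = 0.00370, edgeR). Gclc had 201, 205, 215, 221 and 243 in WT and 248, 297, 307, 341 and 346 in Ercc1Δ/- mice, a rise of 1.41-fold (0.50 ± 0.11 SE, adjusted p = 0.00277). These 2 genes were also the ones without overlap between genotypes, beside 3.08% of all genes. Both calls were kept with libraries thinned to 921167 counts (adjusted p = 0.0150 and 0.0244). Srxn1 averaged 176 ± 24.4 (SD, n = 5) in Ercc1Δ/- and 148 ± 13.2 in WT mice on DR (log2 0.24 ± 0.11 SE, adjusted p = 0.144), and Txnrd1 differed by 0.10 ± 0.09 SE (adjusted p = 0.516). Macrophage markers were higher in 9 of 15 genes in this comparison.

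Set against AL-fed WT mice of 22 weeks, restricted Ercc1Δ/- mice again differed in Hmox1 (log2 1.36 ± 0.27 SE, adjusted p = 0.00200, edgeR) and Gclc (0.57 ± 0.11 SE, adjusted p = 0.00108), 2 of 9 targets beside 16.8% of genes. Srxn1 was 0.23 ± 0.11 SE higher (adjusted p = 0.159). This comparison and the preceding ones share groups of libraries, so they are not independent of each other. Sex, tested over all 28 libraries with group in the model, was called for 0.186% of genes and for 0 of 9 targets in edgeR and in DESeq2. For sex 0 of 9 targets had an unadjusted p under 0.05 in edgeR, beside 967 of all 12353 genes.

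**Figure D3:**
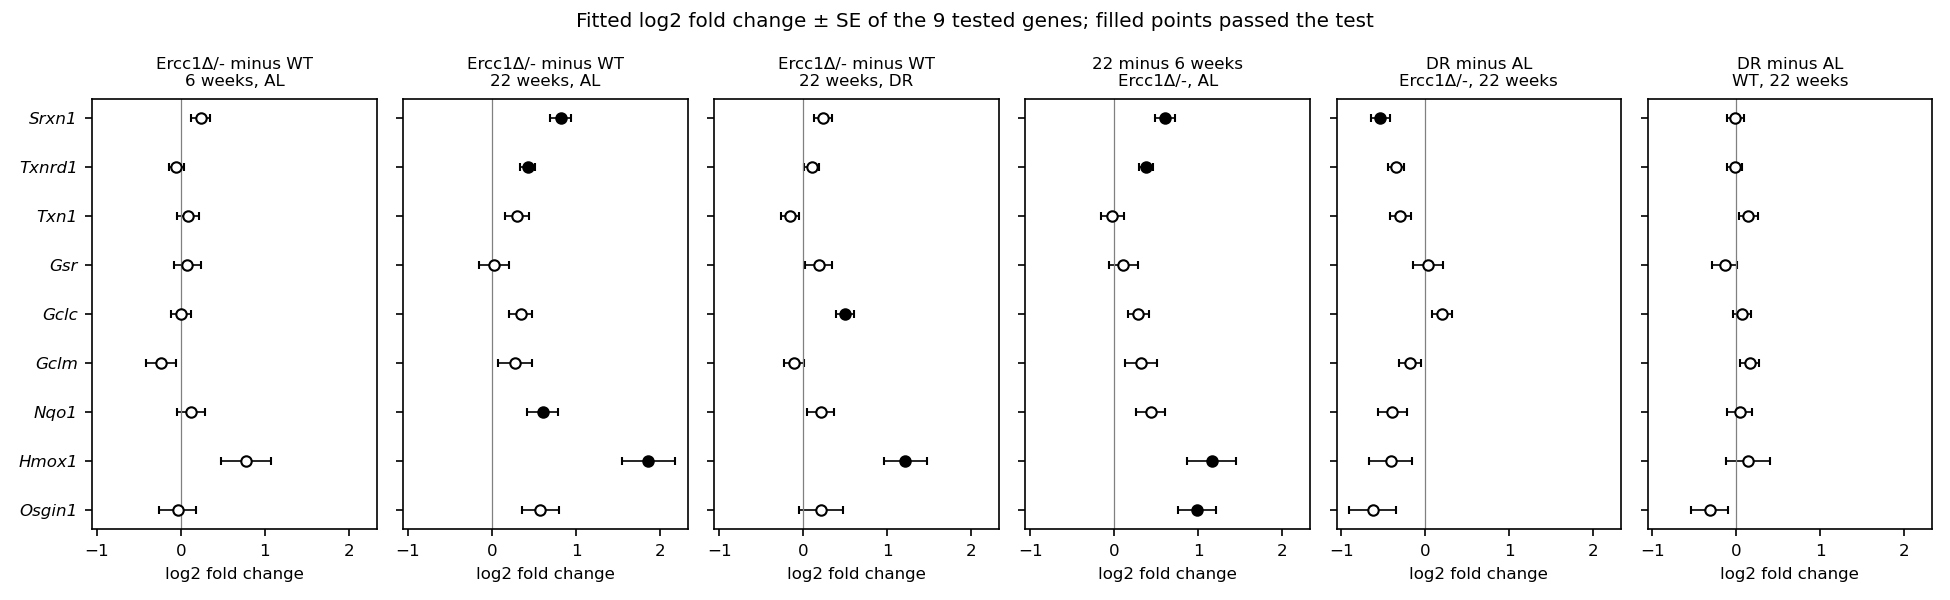
Fitted log2 fold change (x axis) ± SE of the 9 tested targets (rows) in 6 comparisons (panels); filled points passed the test. Filled points lie right of 0 for genotype at 22 weeks and for age in Ercc1Δ/- mice, the one filled point left of 0 is Srxn1 under DR in Ercc1Δ/- mice at -0.53, and the panels for 6 weeks and for DR in WT mice hold none.

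To see how the targets varied among mice of the same group, log2 CPM (counts scaled to a common library total) were centred within the 6 groups, and each pair of the 9 tested targets was correlated over the 28 libraries. Of 36 pairs 18 had a positive Pearson r, with a median of 0.02 and a range of -0.55 to 0.64, and 0 passed at an adjusted p of 0.05 over 45 relations (permutation within groups). The strongest was Hmox1 with Gsr (r = 0.64, permutation p = 0.0155, adjusted p = 0.166; Spearman's rho = 0.48, p = 0.0240, adjusted p = 0.206; r = 0.49 without the 2 libraries farthest out). Hmox1 with Srxn1 gave r = 0.55 (permutation p = 0.0101, adjusted p = 0.151; rho = 0.57, p = 0.00608, adjusted p = 0.137; r = 0.51 without 2 libraries). For Gclm with Osgin1 r was 0.52 (permutation p = 0.00182, adjusted p = 0.0819; rho = 0.57, p = 0.00309, adjusted p = 0.137; r = 0.45 without 2 libraries). The largest negative value was that of Gclc with Srxn1 (r = -0.55, permutation p = 0.00763, adjusted p = 0.151; rho = -0.54, p = 0.0103, adjusted p = 0.155; r = -0.56 without 2 libraries). The 9 other relations set each target against the mean of the macrophage markers. There Hmox1 gave r = 0.36 (permutation p = 0.0914, adjusted p = 0.464; rho = 0.47, p = 0.0320, adjusted p = 0.206; r = 0.30 without 2 libraries), Srxn1 r = -0.05 (permutation p = 0.809, adjusted p = 0.902; rho = 0.00, p = 0.997) and Txnrd1 r = -0.23 (permutation p = 0.316, adjusted p = 0.902; rho = -0.21, p = 0.302).

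**Figure D4:**
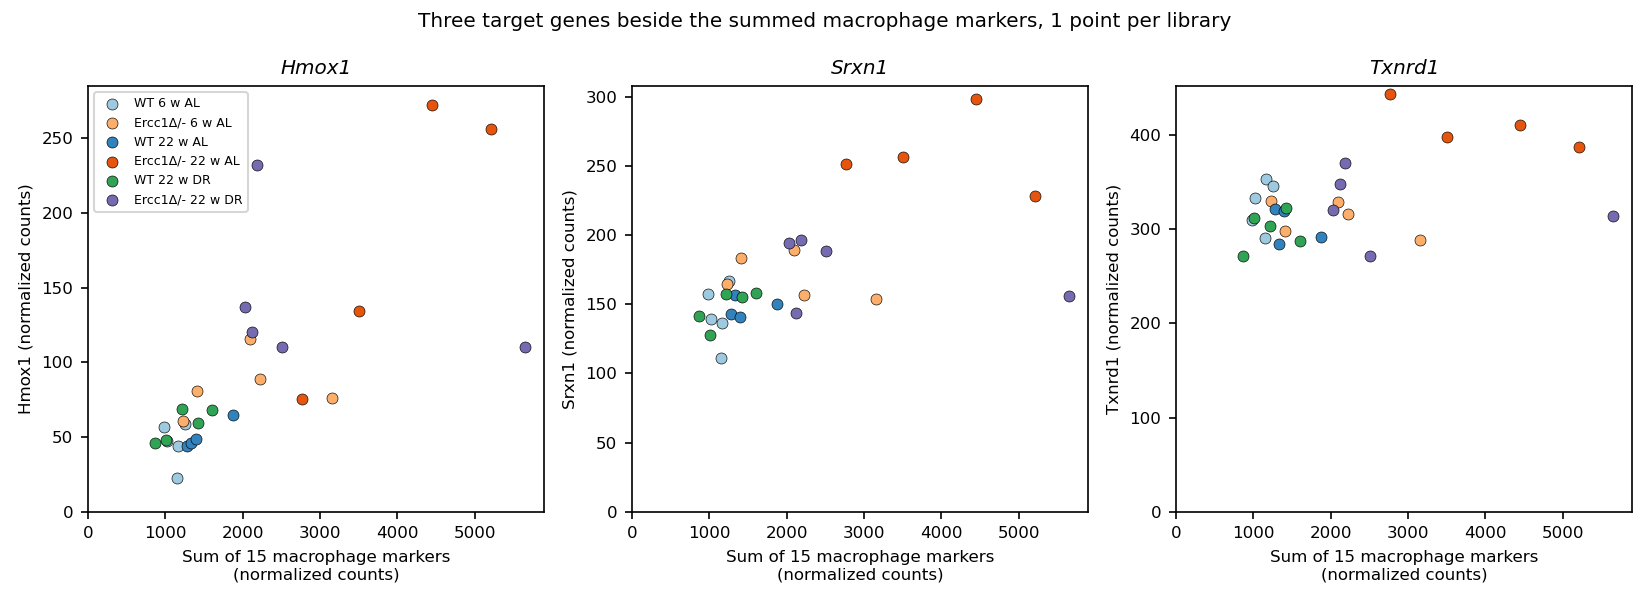
Normalized counts of Hmox1, Srxn1 and Txnrd1 (y axes, from 0) against the summed normalized counts of 15 macrophage markers (x axis), 1 point per library, coloured by group. AL-fed Ercc1Δ/- libraries of 22 weeks (2765 to 5204) lie right of all WT libraries, and a restricted Ercc1Δ/- library with a sum of 5654 lies at 110 for Hmox1.

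For each target called between genotypes at 22 weeks on AL, the genes of most similar pattern were sought by the mean absolute difference of standardized log2 CPM over the 28 libraries. Nearest to Srxn1 was Hmox1 (0.442), then H2-T10 (0.442), a class I histocompatibility gene with close copies, against a median of 1.08 over 12352 genes. Nearest to Hmox1 were Lilrb4b (0.354), a receptor of myeloid cells, and Plin2 (0.364), which coats lipid droplets, and Srxn1 stood at rank 10. The genes nearest to Txnrd1 were Tubb4b (0.525), a tubulin, and Vmp1 (0.572), a membrane protein of autophagy, with Srxn1 at rank 18 and Osgin1 at rank 155. Those nearest to Nqo1 were Gldn (0.538) and Col4a4 (0.542), a basement membrane collagen chain, and its closest fellow target, Hmox1, stood at rank 569.

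Of 15 genes that regulate NRF2, 1 was called between genotypes at 22 weeks on AL, where 12.0% of all genes were called. Nfe2l2 averaged 534 ± 115 (SD, n = 4) normalized counts in WT and 549 ± 103 (SD, n = 4) in Ercc1Δ/- mice at 22 weeks on AL (log2 -0.02 ± 0.12 SE, adjusted p = 0.956, edgeR). Keap1 stood at 278 ± 8.91 and 275 ± 24.5 (log2 -0.02 ± 0.11 SE, adjusted p = 0.929), and Bach1, a repressor that competes for the same element, at 79.5 ± 14.1 and 87.8 ± 5.05 (0.08 ± 0.22 SE, adjusted p = 0.845). The one called was Maff, a small MAF partner, which rose (0.54 ± 0.17 SE, adjusted p = 0.0356), and the list's median was -0.02. With DR in Ercc1Δ/- mice 1 of 15 was called, another small MAF, Mafk, which rose by 0.46 ± 0.10 SE (adjusted p = 0.0229), beside 1.64% of all genes. These are RNA levels, while KEAP1 acts on the NRF2 protein.

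Among 29 other tested NRF2 target genes, 10 rose between genotypes at 22 weeks on AL and 0 fell, beside 5.87% of all genes called upward, with a median of 0.42 on the log2 scale. Ftl1, the ferritin light chain that stores iron, had a WT range of 834 to 933 normalized counts and an Ercc1Δ/- range of 1548 to 1958 (log2 0.95 ± 0.12 SE, adjusted p = 1.63e-05, edgeR). Akr1b8, an aldose reductase, ranged from 24.3 to 48.7 and from 92.1 to 117 (1.34 ± 0.23 SE, adjusted p = 4.01e-04), and Htatip2 rose by 0.75 ± 0.17 SE (adjusted p = 0.00513). Neither Ftl1 nor Akr1b8 overlapped between genotypes. Ftl1 also passed the interaction of genotype and age (0.69 ± 0.16 SE, adjusted p = 0.0356). With DR in Ercc1Δ/- mice 3 of 29 fell and 0 rose (median -0.03), beside 0.996% of all genes called downward: Slc48a1, a haem transporter (-0.40 ± 0.08 SE, adjusted p = 0.00962), Prdx1, a peroxiredoxin (-0.43 ± 0.09 SE, adjusted p = 0.0103), and Cbr3, a carbonyl reductase (-0.88 ± 0.21 SE, adjusted p = 0.0345). None of these 3 had been called between genotypes at 22 weeks on AL.

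Of 27 glutathione and thioredoxin partners 4 rose with genotype at 22 weeks on AL and 0 fell (median 0.23), in a comparison where 12.0% of all genes were called and 5.87% upward. Gpx1, a glutathione peroxidase, averaged 935 ± 49.4 (SD, n = 4) normalized counts in WT and 1227 ± 108 (SD, n = 4) in Ercc1Δ/- mice (log2 0.43 ± 0.09 SE, adjusted p = 0.00304, edgeR). It passed the interaction of genotype and age (0.51 ± 0.12 SE, adjusted p = 0.0446) and fell with DR in Ercc1Δ/- mice (-0.36 ± 0.08 SE, adjusted p = 0.0166). Slc3a2, the heavy chain that pairs with Slc7a11 and other carriers, rose by 0.54 ± 0.13 SE (adjusted p = 0.00785), and Prdx3, the mitochondrial peroxiredoxin, by 0.81 ± 0.23 SE (adjusted p = 0.0313). Gpx8 also fell with DR (-0.57 ± 0.13 SE, adjusted p = 0.0274), so 2 of 27 did and 0 rose, beside 0.996% of all genes called downward.

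In haem and iron handling 3 of 14 genes rose with genotype at 22 weeks on AL (median 0.31), beside 5.87% of all genes called upward: Slc11a1, an iron carrier of phagocytes (17.9 ± 3.07 SD in WT and 39.0 ± 14.2 SD normalized counts in Ercc1Δ/- mice, n = 4 each, adjusted p = 0.00377, edgeR), Tfrc, the transferrin receptor (1.03 ± 0.24 SE, adjusted p = 0.00646), and Slc40a1, the iron exporter ferroportin (1.24 ± 0.32 SE, adjusted p = 0.0128). With DR in Ercc1Δ/- mice edgeR called 0 of 14. Of the 14, 2 had an unadjusted p under 0.05, as had 1849 of all 12353 genes. Slc40a1 stood at -1.15 ± 0.36 SE (adjusted p = 0.105). Slc11a1 and Slc40a1 are also abundant in macrophages. Of 15 macrophage markers 12 were called higher with genotype at 22 weeks on AL. With DR in Ercc1Δ/- mice 5 were called lower, while 3 of the 15 values were above 0. The part of macrophage number in the levels of these iron genes was not tested.

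Of 17 genes of the ATF4 response to amino acid shortage, which also drives Slc7a11, 7 rose with genotype at 22 weeks on AL and 0 fell (median 0.38), beside 5.87% of all genes called upward. Trib3, a pseudokinase, averaged 12.7 ± 4.49 (SD, n = 4) in WT and 32.0 ± 4.17 (SD, n = 4) in Ercc1Δ/- mice (log2 1.44 ± 0.27 SE, adjusted p = 9.62e-04, edgeR). Sesn2, a sensor of leucine and a partner in peroxiredoxin repair, rose by 0.73 ± 0.16 SE (adjusted p = 0.00435), and Psat1, of serine synthesis, by 1.11 ± 0.25 SE (adjusted p = 0.00545). With DR in Ercc1Δ/- mice 2 of 17 fell, beside 0.996% of all genes called downward, namely Nupr1 (-0.62 ± 0.11 SE, adjusted p = 0.00452) and Atf5 (-0.53 ± 0.11 SE, adjusted p = 0.0103). In WT mice on DR their values were -0.37 ± 0.11 SE (adjusted p = 0.0961) and -0.38 ± 0.10 SE (adjusted p = 0.0717).

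**Figure D5:**
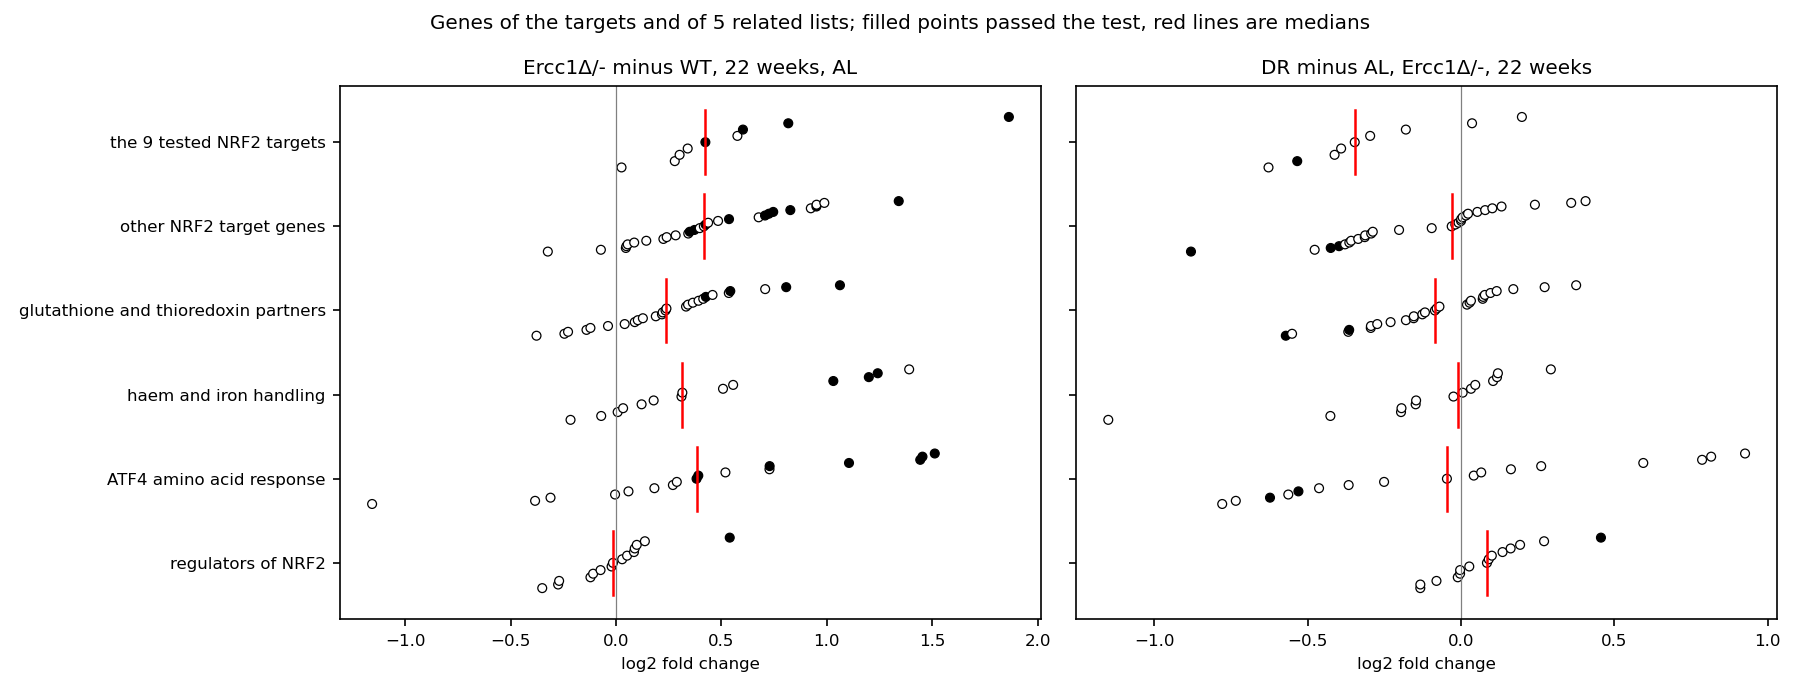
Fitted log2 fold change (x axis) of each tested gene in the 9 targets and 5 related lists (rows), for genotype at 22 weeks on AL (left) and for DR in Ercc1Δ/- mice (right); filled points passed the test and red lines are medians. At left the medians of the targets and of the other NRF2 target genes are both 0.42 and that of the regulators is -0.02, and at right the median of the 9 targets is -0.35.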

How the data were processed

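RNA from the aortic arch was sequenced on libraries made with a kit that keeps the strand. The authors trimmed reads, aligned them with STAR 2.7.10a to GRCm39, removed duplicates by molecular identifier with UMI-tools 1.1.2 and counted reads per Ensembl gene over whole gene bodies with HTSeq 2.0.2. The deposited values are these raw counts. The strand setting of the counting is not given in the sources used here, so reads of antisense genes may be included. The 5 summary lines of the table were kept out of library sizes and tests (7.27% to 10.1% of a column's total were reads in no gene, and 1.4% to 1.82% ambiguous reads). Each of 29 columns matched 1 sample by its number.

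A gene was kept where over 10 of the 28 samples had more than 10 counts (12353 of 56748). Replicate 003 (400410 gene counts) was left out, as the authors did. Counts were tested with edgeR 4.0.16 (TMM, quasi-likelihood F test, robust, group and sex in the model), using the AL samples of both ages for genotype and age, and the 22-week samples for diet. TMM factors were 0.935 to 1.07. DESeq2 1.42.0, other normalization, filters, samples and depths, and each library left out in turn were the alternatives. Exact permutation tests ran over normalized counts. Correlations used 100000 permutations within groups. As a check for a library deposited more than once, the counts of each pair within a group were compared, and no pair agreed within counting noise (chi-square per degree of freedom 2.31 to 22.9 over 52 pairs). The edgeR fit for genotype at 22 weeks on AL was tested on simulated counts. The depth of a library (921167 to 9616382 gene counts) limits the precision of low genes. Since each mouse gave 1 library, the tests set a difference between groups against the variation between libraries of different mice.

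Genes named outside the 10 targets are, per list, up to 3 called genes with the smallest p for genotype at 22 weeks on AL and for DR in Ercc1Δ/- mice, plus Nfe2l2, Keap1 and Bach1, and the 2 genes of nearest pattern per called target. Targets and lists were chosen with earlier results of these data known. R was version 4.3.3.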

Additional observations from a re-analysis of the deposited data

Results flagged for a closer look

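Within groups of 4 or 5 libraries, 4 single values stood far from the rest of their group by Dixon's criterion, out of 54 groups of values examined (7.41%; chance gives about 1 in 20). Hmox1 in restricted Ercc1Δ/- mice was at 232 normalized counts in replicate 014, beside 110 to 137 in the other libraries. Gsr in AL-fed 22-week-old Ercc1Δ/- mice was at 58.6 in replicate 013, beside 133 to 145. Txn1 in WT mice of 6 weeks was at 357 in replicate 019, beside 227 to 261. Osgin1 in Ercc1Δ/- mice of 6 weeks was at 39.1 in replicate 027, beside 27.3 to 30.4. Replicates 014 (921167 gene counts), 013 (1294980) and 019 (1368274) are among the shallow libraries, and the part of depth in their values was not tested.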

How the results depend on the processing

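Each comparison was refitted under each alternative that applied to it. The number of targets called stayed within 1.5 times of its main value in 292 of these refits and moved in 10. The 292 include refits of comparisons where the number was 0 and stayed 0. No called target changed sign. At 22 weeks on AL, 2 rather than 4 targets passed between genotypes with libraries thinned to the shallowest. For age in Ercc1Δ/- mice, 2 rather than 4 passed without a filter on low counts and 2 when thinned. Slc7a11 counts among the targets in the fits without a filter, and its own result there is not given. For DR in Ercc1Δ/- mice, 2 rather than 1 passed in DESeq2, and 0 with only the compared groups in the fit or when thinned; leaving out each library gave 0 to 2. DESeq2 called 2 targets for the interaction of genotype and age, where edgeR called 0. Fewer counts lie behind the thinned fits and more genes behind the unfiltered ones; for the others the cause was not tested.

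Of single genes tested in the main fits, 24 calls were lost and 5 gained under an alternative, and 428 values kept their side of the threshold. Nqo1 at 22 weeks on AL was lost without a filter (log2 0.53, adjusted p = 0.0696), with only the compared groups (0.60, adjusted p = 0.0568) and when thinned, and Txnrd1 was lost without a filter (0.35, adjusted p = 0.0599). Srxn1 under DR was lost with only the compared groups (-0.53, adjusted p = 0.0787) and when thinned (-0.58, adjusted p = 0.0670), and Txnrd1 under DR passed in DESeq2 (-0.35, adjusted p = 0.0274). For age in Ercc1Δ/- mice Hmox1 was lost without a filter, with only the compared groups (adjusted p = 0.180) and when thinned, Txnrd1 without a filter, and Osgin1 when thinned (adjusted p = 0.260).

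Counts over all genes moved by more than 1.5 times in several fits. DESeq2 called 378 rather than 211 genes for genotype at 6 weeks, 106 rather than 29 for age in WT mice, 344 rather than 203 for DR in Ercc1Δ/- mice, 191 rather than 104 for genotype by age, 35 rather than 12 for genotype by diet and 52 rather than 23 for sex. Without a filter it was 70 for age in WT mice, 310 rather than 161 for DR in WT mice, 41 for genotype by diet and 49 for sex. With replicate 003 added it was 103 for DR in WT mice, 101 for DR in Ercc1Δ/- mice and 3 for genotype by diet. With no sex term it was 17 for age in WT mice, 55 for DR in WT mice and 2 for genotype by diet. With all 6 groups in the fit it was 66 for DR in WT mice and 5 for genotype by diet, and with only the compared groups 121 for genotype at 6 weeks and 91 for DR in Ercc1Δ/- mice. Thinning gave 124 for genotype at 6 weeks, 757 rather than 1486 at 22 weeks on AL, 990 rather than 1601 on DR, 1237 rather than 2072 for restricted Ercc1Δ/- against AL-fed WT mice, 325 rather than 576 for age in Ercc1Δ/- mice, 19 for age in WT mice, 125 and 57 for DR in Ercc1Δ/- and WT mice, 64 for genotype by age and 7 for genotype by diet. Leaving out single libraries also moved these counts by more than 1.5 times: for genotype at 22 weeks on AL to 934 and for restricted Ercc1Δ/- against AL-fed WT mice to 1329 (both without 018), for genotype at 6 weeks to between 101 and 131 (without 009, 027, 011 or 019), for age in Ercc1Δ/- mice to between 322 and 364 (004, 008 or 005), for age in WT mice to between 8 and 18 (025, 009 or 001) or to 56 (027), for DR in Ercc1Δ/- mice to between 78 and 116 (026, 004, 029, 014 or 005), for DR in WT mice to between 46 and 90 (018, 020, 017, 028 or 021), for genotype by age to 55 (018) or 63 (004), for sex to between 36 and 47 (001, 024 or 027), and for genotype by diet to between 2 and 7 in 10 fits. No paired analysis was possible because each mouse gave 1 library and the sample numbers are not shared between groups. Alternatives added after seeing the data were edgeR's earlier dispersion method, which changed no call of a target, and the longer promoter window.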
